A study of Mus musculus with 24 samples.

Results

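The miR-135 family was read by 2 of the 584 microRNA assays on the cards, the mouse assays mmu-miR-135a and mmu-miR-135b. Both were taken by their assay name and both lay on card A, with 1 well each. The family was chosen by measured values of these data, since miR-135a had the lowest p of all assays between MCK-PPARb and NTGb, and values that involve either of those groups are therefore a description. The study measured microRNAs by real-time PCR in the soleus, a postural calf muscle rich in slow-twitch fibres, of 12 male mice aged 12 weeks. MCK-PPARa mice (n = 3) carried a transgene that raised PPARα in muscle, and NTGa mice (n = 3) were their littermates without it. MCK-PPARb mice (n = 3) carried the equivalent transgene for PPARβ, and NTGb mice (n = 3) were their non-transgenic littermates. The MCK promoter, from the muscle creatine kinase gene, is active in striated muscle, the heart included. No source used here gives the strain or says how many transgenic lines were used, and the cards measured no messenger RNA, so the level of either transgene could not be checked. The question addressed was whether microRNAs of skeletal muscle differ when one of these receptors is raised.

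MicroRNAs guide a silencing complex to messenger RNAs that pair with bases 2 to 8 of the microRNA, its seed, so microRNAs with 1 seed can share targets. miR-135 is abundant in brain, and in human colon cells miR-135a and miR-135b repress APC, a brake on Wnt signalling. In mouse myoblasts the muscle long non-coding RNA linc-MD1 binds miR-135 and miR-133 and so relieves Mef2c, a transcription factor of muscle differentiation and a target of miR-135.

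The sequences below show what the assays of the family can tell apart, since miR-135a has 2 genes and miR-135b has 1. They are RefSeq entries on mouse build GRCm38.p6, written 5′ to 3′. In the mature forms the capitals mark the seed, and in the hairpins they mark the letters of the miR-135a-5p seed.
mmu-miR-135a-5p, from Mir135a-1 at chr9:106154140-106154162 (+) and Mir135a-2 at chr10:92072141-92072163 (-): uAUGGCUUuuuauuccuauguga
Mir135a-1 hairpin, chr9:106154124-106154213 (+): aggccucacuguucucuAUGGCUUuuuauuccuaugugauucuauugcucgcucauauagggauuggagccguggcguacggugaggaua
Mir135a-2 hairpin, chr10:92072086-92072185 (-): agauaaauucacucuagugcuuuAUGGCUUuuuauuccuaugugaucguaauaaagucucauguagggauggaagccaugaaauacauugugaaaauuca
Mir135b hairpin, chr1:132198088-132198184 (+): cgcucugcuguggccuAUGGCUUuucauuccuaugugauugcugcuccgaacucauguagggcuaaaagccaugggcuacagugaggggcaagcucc
mmu-miR-135a-1-3p, chr9:106154179-106154200 (+): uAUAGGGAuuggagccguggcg
mmu-miR-135a-2-3p, chr10:92072104-92072124 (-): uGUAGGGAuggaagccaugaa

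The mature miR-135a-5p was the same 23 bases from either gene, so its assay could not tell Mir135a-1 from Mir135a-2. The 2 Mir135a hairpins shared a run of 24 bases, which holds the whole mature form. The hairpins of Mir135a-1 and Mir135b shared a run of 14 bases at most, and those of Mir135a-2 and Mir135b one of 13. Laid along the Mir135b hairpin without gaps, the letters of miR-135a-5p matched at 22 of 23 bases, with U11C the only difference (counted from 1 at the 5′ end of miR-135a-5p, which has the first base, the hairpin the second). How far each assay also reads the other member was not tested. Each of the 3 hairpins held AUGGCUU once, and 8 of 1005 mouse hairpins in the table (0.796%) held these letters anywhere. The 3p arms of the Mir135a genes differed in sequence and seed. In the RefSeq annotation, Mir135a-1 lay within the span of Glyctk, a glycerate kinase gene, and Mir135b within that of Lemd1, while Mir135a-2 lay outside its neighbour Rmst, a long non-coding RNA gene.

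The cycle threshold, Ct, is the PCR cycle by which an assay's fluorescence has risen over a set line, and it is lower where there is more template. miR-135a was close to constant in the animals of the PPARα line and varied in those of the PPARβ line. Its Ct was 29.7, 29.3 and 29.9 in NTGa replicates 1 to 3. In MCK-PPARa it was 29.6, 29.5 and 29.4. These 6 animals lay within 1 cycle of each other. In NTGb the Ct was 34.6 in replicate 1 and 31.5 in replicate 2, and replicate 3 had no Ct within 40 cycles. In MCK-PPARb it was 31.4, 30.9 and 29.3. All 3 MCK-PPARb animals thus had an earlier Ct than any NTGb animal, and NTGb was the group in which the assay came latest. The margin was thin, with MCK-PPARb replicate 1 at 31.44 and NTGb replicate 2 at 31.51, in 1 well each.

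miR-135b crossed the threshold in all 12 animals and moved over a range of more than 5 cycles. Its Ct was 26.0, 25.7 and 26.0 in NTGa, a tight group with the lowest mean Ct of the 4 groups. In MCK-PPARa it was 29.2, 26.6 and 29.5, so replicate 2 lay near the controls and the other animals well after them. NTGb had 31.3, 27.9 and 30.8, with replicate 2 again the earliest of its group. MCK-PPARb had 29.7, 27.8 and 25.9, a span that reached from the NTGb values to the NTGa values. In whole muscle, fewer cells of a type and less RNA per cell cannot be told apart.

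**Figure D1:**
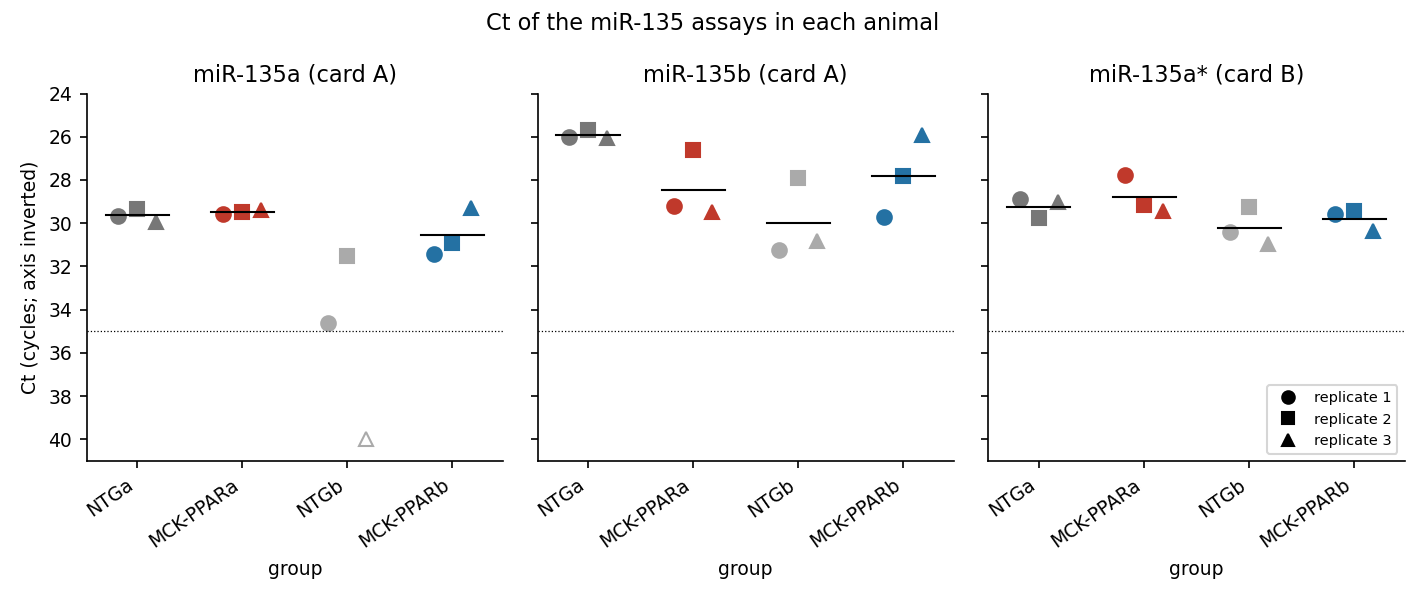
Ct in cycles (inverted axis, so higher points mean more template) of the 3 detected miR-135 assays in each of 12 animals, by group, with the symbol giving the replicate number. Lines are group means over 3 Ct values, the dotted line is the detection limit of Ct 35, and the open triangle at 40 is the NTGb animal with no Ct for miR-135a; the 6 NTGa and MCK-PPARa points of miR-135a lie together while miR-135b splits in MCK-PPARa.

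Levels were put on a log2 scale by subtracting the Ct of the assay from the card's reference, which averages the microRNAs found in every animal, with undetected values at a floor of -6.56. On this scale miR-135a stood at -1.52 ± 0.016 (SD, n = 3) in MCK-PPARa, -1.85 ± 0.17 in NTGa, -2.48 ± 1.14 in MCK-PPARb and -5.58 ± 1.43 in NTGb. The NTGb mean holds 1 animal at the floor. In this order MCK-PPARa and NTGa did not overlap but lay 0.34 apart, NTGa lay inside the range of MCK-PPARb, and every MCK-PPARb animal was above every NTGb animal. miR-135b stood at 1.87 ± 0.099 in NTGa, 0.26 ± 1.91 in MCK-PPARb, -0.47 ± 1.59 in MCK-PPARa and -1.87 ± 1.33 in NTGb. Here NTGa lay inside the range of MCK-PPARb, and the ranges of MCK-PPARb and MCK-PPARa, and of MCK-PPARa and NTGb, overlapped. The groups therefore ranked differently for the 2 members, except that NTGb was lowest for both.

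MCK-PPARa against NTGa was the comparison open to a test, since its animals were not those on which miR-135a was chosen. miR-135b was 5.08-fold lower on average in MCK-PPARa (log2 -2.34, SE 1.01, 95% interval -4.58 to -0.11), with 3 of 3 transgenic animals below every NTGa animal. It did not pass the test across all assays (limma unadjusted p = 0.041, adjusted p = 0.289). Without MCK-PPARa replicate 2 the value was -3.25 (limma adjusted p = 0.126), and without replicate 3 it was -1.79. miR-135a was at log2 0.34 (SE 0.67, 95% interval -1.15 to 1.82, limma adjusted p = 0.86), with 3 of 3 transgenic animals above every NTGa animal by a small margin. The SE of miR-135a is shared over the 4 groups and was set mostly by the PPARβ line, and a fit to the 6 animals of the PPARα line alone gave a limma adjusted p of 0.34.

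Of the 2 members, 0 were called changed in MCK-PPARa by limma at an adjusted p under 0.05, where 2.24% of the 268 tested assays were. At an unadjusted p under 0.05, 1 of the 2 passed, against 16.4% of all assays. The groups did not overlap for 2 of the 2 members, against 25.7% of all assays. By size of the log2 difference, miR-135b ranked 3 of 268 and miR-135a ranked 141.

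MCK-PPARb against NTGb is described here without a test. miR-135a was 8.62-fold higher in MCK-PPARb (log2 3.11, SE 0.67), measured against a control group in which 2 of 3 animals were detected. Its log2 value was 1.12 at a detection limit of Ct 32, 4.77 with no limit, 2.45 without MCK-PPARb replicate 3 and 3.93 without NTGb replicate 2. miR-135b was 4.37-fold higher on average (log2 2.13, SE 1.01), but NTGb replicate 2, at -0.36, lay above MCK-PPARb replicate 1, at -1.62. Without MCK-PPARb replicate 3 the value of miR-135b was 1.16, and without MCK-PPARb replicate 1 it was 3.08. By size these differences ranked 1 and 2 of the 268 assays in this comparison. The groups did not overlap for 1 of the 2 members, where 15.3% of all assays did not. By limma no assay was called in this comparison at an adjusted p under 0.05 (0%), and 8.58% had an unadjusted p under 0.05. Next to miR-135a in order of p came miR-28, at log2 0.94 (SE 0.28).

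The means of the non-transgenic groups lay farther apart than those of either transgenic group and its littermates. As a description, miR-135a was 13.3-fold higher in NTGa than in NTGb (log2 3.73, SE 0.67) and miR-135b was also 13.3-fold higher (log2 3.74, SE 1.01). Neither member overlapped between these groups, where 19.4% of all assays did not overlap. Their differences were the 2 largest of the 268 assays, whose median absolute difference was 0.41. For miR-135a the value was 1.74 with a detection limit of Ct 32, whose higher floor held every NTGb animal. It was 5.40 with no limit, where the NTGb animal without a Ct was counted as Ct 40. NTGb replicate 2 held more of both members than the other NTGb animals, and without it the differences were 4.55 and 4.49.

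Set directly against each other, the transgenic groups lay closer together. miR-135a was 0.96 higher in MCK-PPARa than in MCK-PPARb on the log2 scale (SE 0.67) and miR-135b was at -0.73 (SE 1.01). The groups overlapped for both members, while 24.6% of all assays did not overlap. Leaving out MCK-PPARb replicate 3 turned the value of miR-135b to 0.23.

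**Figure D2:**
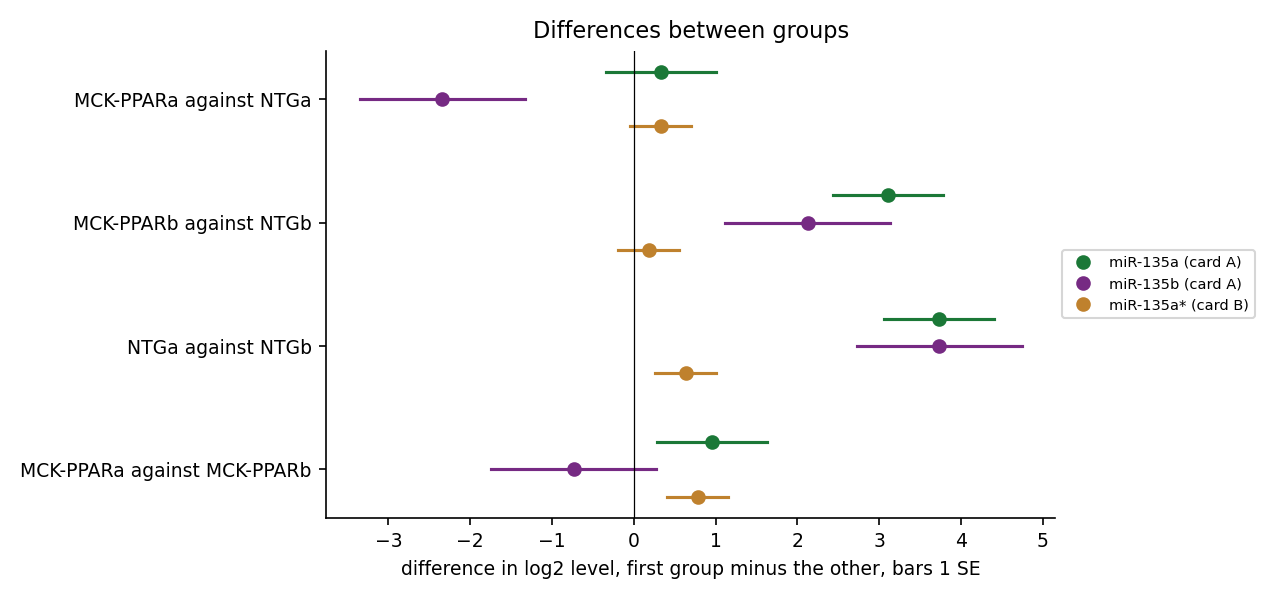
Differences in log2 level (first group minus the other) of miR-135a, miR-135b and the passenger-strand assay miR-135a* in 4 comparisons, with bars of 1 SE from the fit over 12 animals. Both members lie near 3.7 for NTGa against NTGb, miR-135b changes side between the transgenic comparisons (-2.34 and 2.13), and miR-135a* stays within 1 of zero throughout.

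The direction read for a transgene depended on which littermates were used. Against NTGb in place of NTGa, MCK-PPARa gave log2 4.07 for miR-135a and 1.39 for miR-135b, the reverse of its sign against NTGa. Against NTGa in place of NTGb, MCK-PPARb gave -0.62 for miR-135a and -1.61 for miR-135b, both reversed. Against the mean of both control groups the values were 2.20 and -0.48 in MCK-PPARa and 1.24 and 0.26 in MCK-PPARb. The choice of reference for scaling turned none of these signs when the littermates were kept, with miR-135b in MCK-PPARa between -2.53 and -2.23 and in MCK-PPARb between 1.94 and 2.44 over 5 references.

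**Figure D3:**
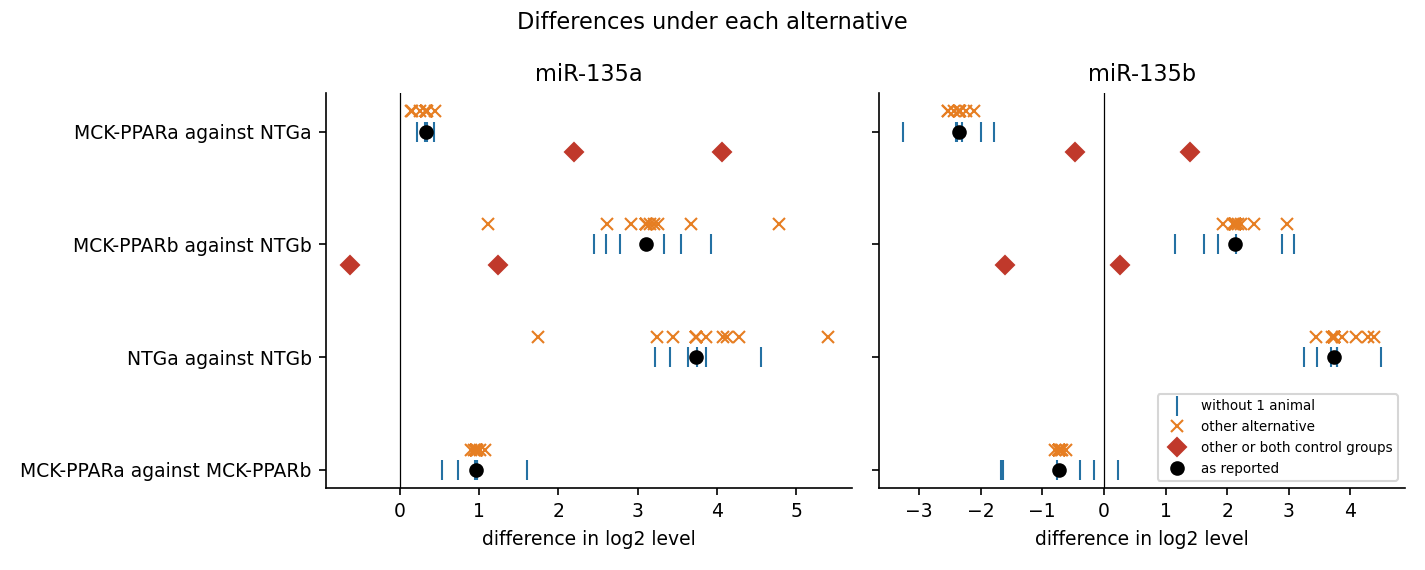
Difference in log2 level of miR-135a and miR-135b in 4 comparisons as reported (black), without 1 animal (blue ticks), with another control group or both (red diamonds) and under the other alternatives (orange crosses). In both comparisons of a transgenic group with its littermates, the point farthest from the reported value is the red diamond of the other control group. For miR-135a in MCK-PPARb against NTGb, the orange cross of the detection limit of Ct 32 (1.12) lies farther off than the red diamond of both control groups (1.24).

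Because both assays lay on the same card, the Ct of miR-135a minus the Ct of miR-135b could be read within each animal with no scaling. Assays can differ in efficiency, so the gap is compared between animals and is not a ratio of copies. In NTGa the gap was 3.66, 3.64 and 3.88 cycles. In NTGb it was 3.38 and 3.59 in the 2 animals with both Ct values. The 5 control animals with both values thus kept nearly the same gap although their levels of each member differed by several cycles. NTGb replicate 3 had miR-135b at 30.8 and no Ct for miR-135a within 40 cycles. If that well is read as a Ct past 40, its gap would be wider than that of every other animal. A constant gap is therefore not shown for all control animals. In MCK-PPARa the gap was 0.34, 2.88 and -0.08 cycles, below each of the 5 control animals with both values in 3 of 3. Its mean was 1.04 ± 1.60 (SD, n = 3) against 3.73 ± 0.135 in NTGa, a difference of -2.68 cycles. An exact two-sided permutation test gave p = 0.1, the smallest that 3 animals against 3 allow. The gap is the difference between the 2 levels, which had already separated these groups in opposite directions. The outcome of the permutation test was therefore fixed by the levels given above and is no separate evidence. The gap was not among the planned results. Without MCK-PPARa replicate 2 the difference was -3.60, and without replicate 3 it was -2.12. In MCK-PPARb the gap was 1.71, 3.13 and 3.37 cycles, given as a description. Replicate 1 lay well under those 5 control animals and the others just under them.

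**Figure D4:**
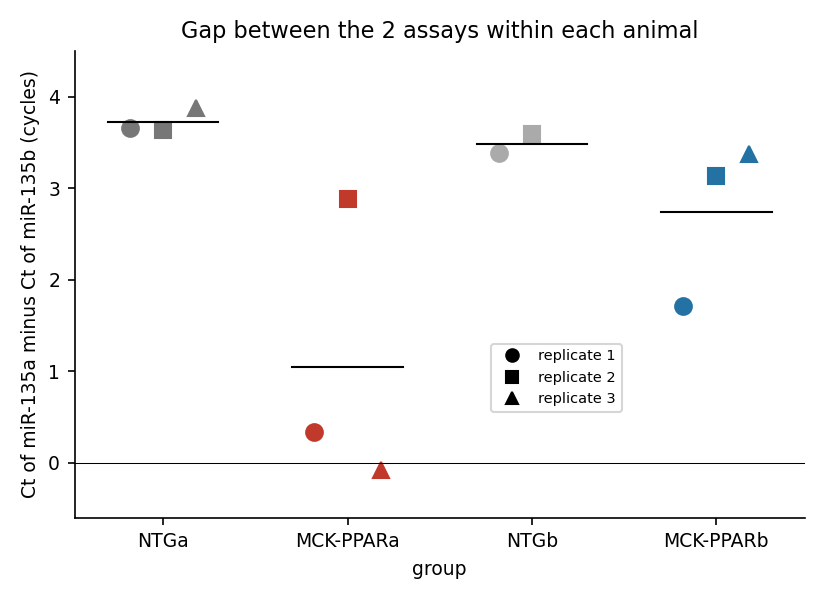
Ct of miR-135a minus Ct of miR-135b, in cycles, in each animal with both values, by group, with lines at group means. The 5 control animals with both values sit between 3.38 and 3.88, and the MCK-PPARa animals at 0.34, 2.88 and -0.08. NTGb replicate 3, with no Ct for miR-135a, has no point.

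The spread between animals of a group was itself uneven. In NTGa the SD of miR-135b was 0.099 on the log2 scale, below 19 of the 24 card A assays within 1 cycle of its mean Ct, whose median SD was 0.22. In MCK-PPARa it was 1.59, above all 29 assays of like Ct (median 0.21). In MCK-PPARb it was 1.91, above all 22 (median 0.26). In NTGb it was 1.33, with 2 of 43 assays of like Ct larger (median 0.38). For miR-135a the SD was 0.016 in MCK-PPARa, where 39 of 40 assays of like Ct were larger, and 1.14 in MCK-PPARb, where 3 of 40 were. So miR-135b was among the steadier assays of its Ct in NTGa and more variable than each of them in MCK-PPARa and MCK-PPARb, and miR-135a was steady in NTGa and MCK-PPARa.

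**Figure D5:**
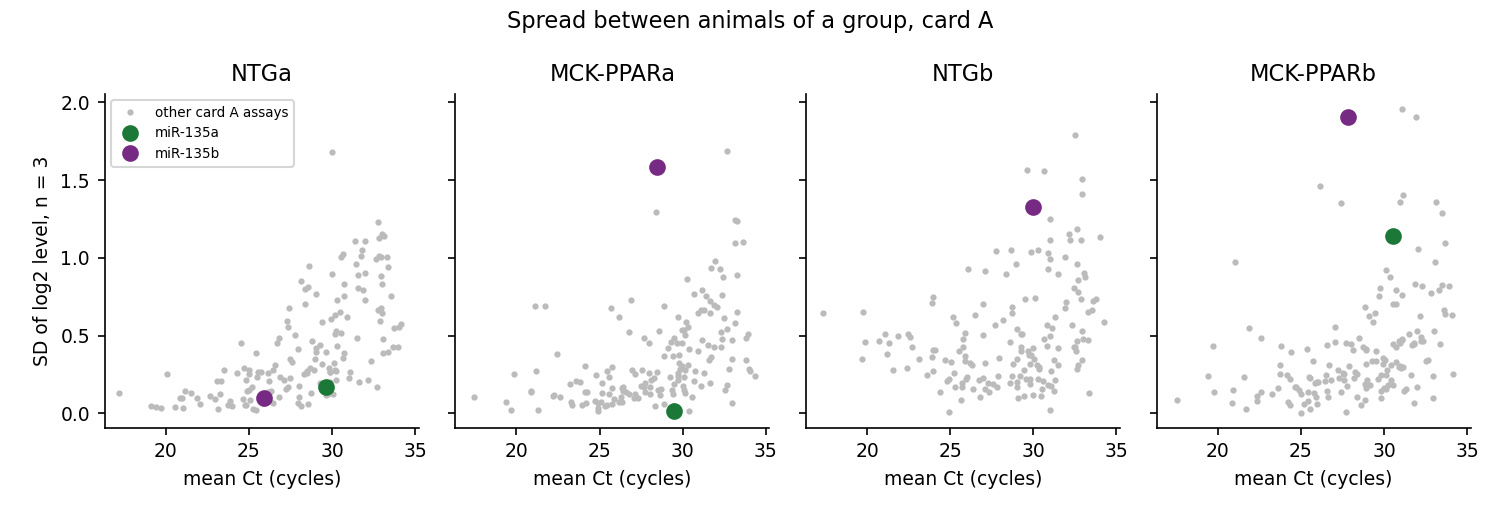
SD of the log2 level over the 3 animals of a group (vertical) against mean Ct in cycles (horizontal) for card A assays detected in all 3, with miR-135a in green and miR-135b in purple. miR-135b lies low in NTGa (0.099) and above the assays of like Ct in MCK-PPARa (1.59) and MCK-PPARb (1.91); miR-135a has no point in NTGb, where 1 animal was not detected.

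The passenger strand, the arm of the hairpin opposite to the mature guide, was read on card B by the assay mmu-miR-135a*, in 2 wells. The assay name does not say whether it reads the 3p arm of Mir135a-1 or of Mir135a-2. Its mean Ct over wells was 28.9, 29.8 and 29.0 in NTGa and 27.8, 29.1 and 29.4 in MCK-PPARa. In NTGb it was 30.4, 29.2 and 31.0 and in MCK-PPARb 29.6, 29.4 and 30.4. The 4 groups overlapped in part, and NTGb had the latest mean Ct, 30.2 against 28.8 to 29.8 in the other groups. As for miR-135a, replicate 2 had the earliest Ct of the NTGb animals. The log2 level of NTGa stood above that of NTGb by 0.63 for miR-135a* and by 3.73 for miR-135a. In NTGb replicate 3, which had no Ct for miR-135a, the wells of miR-135a* were at 30.1 and 31.9. Those wells differed by 1.83 cycles, the most of any animal, where the median over animals was 0.239.

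In log2 level, miR-135a* was at 0.33 in MCK-PPARa against NTGa (SE 0.37, 95% interval -0.49 to 1.15, limma adjusted p = 0.752), and at -0.014 without MCK-PPARa replicate 1. As a description it was at 0.18 (SE 0.37) in MCK-PPARb against NTGb and at 0.63 in NTGa against NTGb, where miR-135a was at 3.11 and 3.73. Over the 12 animals its Pearson r with miR-135a was 0.58 and with miR-135b 0.23, and the r between the 2 members was 0.72. The rank correlations (Spearman rho) were 0.32, 0.16 and 0.59 in turn. These values share the animals and the scaling and are given as a description. A rat assay, rno-miR-135a*, was not detected in any of the 12 animals.

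The assays whose levels followed the members most closely over the 12 animals were named by Pearson r. For miR-135a these were miR-299* (0.80), miR-28 (0.72), miR-192 (0.72), miR-135b (0.72) and miR-337-5p (0.70). By ranks the order differed, with Spearman rho of 0.57, 0.60, 0.89, 0.59 and 0.36 in turn. All had their lowest group mean in NTGb, as miR-135a did, although their range of group means was smaller: miR-337-5p ran from -2.98 in MCK-PPARa to -4.52 in NTGb and miR-28 from -1.72 in MCK-PPARb to -2.66 in NTGb. For miR-135b they were miR-509-3p (0.78), miR-741 (0.75), miR-135a (0.72), miR-20a (0.69) and miR-148a (0.68). Their Spearman rho was 0.84, 0.73, 0.59, 0.79 and 0.64 in turn. miR-509-3p had group means of -3.77 in NTGa, -6.03 in MCK-PPARa, -6.46 in NTGb and -5.96 in MCK-PPARb, with 4 of 12 animals at the floor. Its mean was highest in NTGa, as for miR-135b, and its means in the other groups lay near the floor of -6.56. miR-741 had the same order, with 3 animals at the floor, and only in NTGa was it detected in every animal. The group means of miR-20a lay between 1.42 in NTGb and 1.64 in NTGa. The assays named for both members were chosen by r over the same animals. Group means that resemble those of the member follow in part from that choice and are no separate evidence.

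let-7g, whose gene lies within 100 kb of Mir135a-1 and which belongs to the let-7 family of differentiation-linked microRNAs, was the only such neighbour with an assay on the cards. Its level lay between 3.12 and 3.90 in all 12 animals, with group means of 3.50 in NTGa, 3.74 in MCK-PPARa, 3.32 in NTGb and 3.36 in MCK-PPARb. The low level of miR-135a in NTGb was thus not seen for let-7g.

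The linc-MD1 circuit holds, beside miR-135, its other bound microRNA miR-133 and the microRNAs of its own locus, miR-206 and miR-133b. Of these 3 assays, 0 were called in MCK-PPARa by limma, where 2.24% of all assays were, and 0 had an unadjusted p under 0.05, where 16.4% had. Their median difference was 0.13, beside 0.12 over all 268 assays. miR-206, which is typical of slow muscle, was at log2 0.36 (SE 0.24, limma adjusted p = 0.517), miR-133b at 0.13 and miR-133a at -0.08. In MCK-PPARb their median was 0.09 and for NTGa against NTGb it was -0.18. In the latter miR-206 was at -0.67, miR-133a at -0.18 and miR-133b at -0.14, all opposite in sign to the miR-135 members. None of the comparisons in which miR-135 levels differed by several units thus showed a like difference in the circuit's other members.

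The labelled tissue was checked against muscle microRNAs, of which 7 of 7 were detected in every animal outside MCK-PPARa and 6 of 7 in each MCK-PPARa animal, where miR-208b was missing. In MCK-PPARa against NTGa 1 of the 7 was called, miR-499, which comes from the slow myosin gene Myh7b, at log2 -3.66 (limma adjusted p = 3.94e-05), beside 2.24% of all assays. The median of the list was -0.08. miR-135 is also expressed in brain and epithelium, so markers of those tissues were counted. Of 11 neural microRNAs, 5 were tested and 0 were called in MCK-PPARa (median -0.12). Only miR-9 had a limma unadjusted p under 0.05, at 1.62 with an adjusted p of 0.212. It was detected in 8 animals, and MCK-PPARa was the only group with miR-9 detected in every animal. It entered the test through that group alone, and its NTGa mean includes the floor, so its difference rests in part on the floor. Over all assays 2.24% were called and 16.4% had an unadjusted p under 0.05. With that limit for miR-9, the counts of the neural microRNAs lie near the background. Their summed linear level, relative to the card's reference, was 1.61 to 1.89 in NTGa, 1.45 to 2.74 in MCK-PPARa, 2.22 to 3.37 in NTGb and 2.50 to 4.40 in MCK-PPARb. miR-153 had no Ct in any animal, and miR-137 and miR-129-5p were not detected. The neural sum was thus higher in NTGb than in NTGa, but its members were mixed. For NTGa against NTGb, 2 of the 5 tested were positive and 3 negative, with miR-138 at log2 -1.17 and miR-128a at 0.34.

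Of 9 epithelial microRNAs, 3 were tested and 0 were called in MCK-PPARa (2.24% over all assays, median 0.24). Their summed level was 0.773 to 2.13 in NTGa, 0.924 to 1.07 in MCK-PPARa, 0.633 to 0.854 in NTGb and 0.698 to 1.13 in MCK-PPARb, with miR-183 detected in none and miR-141, miR-200a and miR-205 in 1 animal each. Of 7 leukocyte and red cell microRNAs, 6 were tested and 0 were called (2.24% over all assays, median 0.30), and their sum was 32.8 to 40.8 in NTGa, 33.4 to 43.3 in MCK-PPARa, 28.8 to 46.9 in NTGb and 27.5 to 34.4 in MCK-PPARb. The epithelial sum was lowest in NTGb in its median, but the 3 tested epithelial members were mixed. For NTGa against NTGb miR-203 was at log2 0.27, miR-200c at 0.59 and miR-182 at -1.09. The part of any of these cells in the miR-135 levels was not tested.

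The number of detected microRNAs was 248 to 296 per animal, and no animals of a group had identical files. Both extremes were NTGb animals, 296 in replicate 2 and 248 in replicate 3, with 261 in replicate 1. The card A reference Ct was 28.4 in NTGb replicates 1 and 3 and 27.6 in replicate 2, against 27.7 to 28.1 in the other 9 animals, so the NTGb animals with the least miR-135a and miR-135b also had the latest reference. U6 snRNA on the same card was at 19.8, 19.5 and 19.6 in NTGb replicates 1 to 3. The part of these differences in the miR-135 levels was not tested. With no scaling at all the members differed between NTGa and NTGb by 4.08 each, beside 3.73 and 3.74 with scaling. Unscaled values keep any difference between the references, so they do not bear on that part.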

How the data were processed

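Per the labels' protocols, RNAzol B was used for extraction and the RNA was measured by FAM-labelled TaqMan PCR of 40 cycles. The authors deposited raw Ct values, 1 for each well, and left the cell empty where a well had none; the analysis software and its threshold are not given in the sources used. Each RNA was run on 2 cards, so 24 deposited samples were 12 animals, and 0 columns were left unmatched. The labels call the replicates biological.

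Wells of 1 assay were averaged, an empty well beside a called one counting as Ct 40. An assay counted as detected under Ct 35. Levels were the mean Ct of the 149 (card A) or 59 (card B) microRNAs detected in all animals minus the assay's Ct, floored at -6.56 and -5.66. The 268 assays detected throughout 1 or more groups (180 on card A, 88 on card B) were fitted with limma 3.58.1 in R 4.3.3, as group means over 12 animals with 8 residual degrees of freedom. P-values are two-sided, with Benjamini-Hochberg adjustment over 268 assays and a threshold of 0.05. Single values were compared by exact permutation. A fold change assumes that template doubles each cycle.

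The members and lists were chosen with earlier results of these data known, so differences that involve MCK-PPARb or NTGb have no test. Named by rule were the members and other miR-135 assays, the 5 assays of highest Pearson r to each member, gene neighbours within 100 kb, and list members. In the lists only the most relevant members are named, some outside the rule after their values were seen. Among listed markers miR-144 was not analysed here. Alternatives were other references, detection limits, filters, fits, control groups and each animal left out.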

Additional observations from a re-analysis of the deposited data

Results flagged for a closer look

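The values of miR-135b had opposite signs in the lines, at -2.34 in MCK-PPARa against NTGa, which did not pass the test (limma adjusted p = 0.289), and at 2.13 in MCK-PPARb against NTGb. All 3 MCK-PPARa animals lay below the NTGa mean and all 3 MCK-PPARb animals above the NTGb mean, although MCK-PPARb replicate 1 (-1.62) lay below NTGb replicate 2 (-0.36). Both signs turned with the other littermates as control (1.39 and -1.61). The difference of the log2 differences was -4.47 (SE 1.43). It is given without a test, because MCK-PPARb against NTGb had been used to choose the family. miR-135b was at 3.74 in NTGa against NTGb and at -0.73 in MCK-PPARa against MCK-PPARb.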

How the results depend on the processing

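With the other littermates as control, MCK-PPARa was at 4.07 for miR-135a (a description, since it uses NTGb) and at 1.39 for miR-135b, while MCK-PPARb was at -0.62 and -1.61. With both control groups, MCK-PPARb was at 1.24 and 0.26. The value of miR-135a was 1.12 (MCK-PPARb against NTGb) and 1.74 (NTGa against NTGb) at a limit of Ct 32, and 4.77 and 5.40 with no limit. Its value could not be had when only assays detected in all 12 animals were kept. Without 1 animal, miR-135a ran from 0.22 to 0.43 and miR-135b from -3.25 to -1.79 in MCK-PPARa against NTGa, from 2.45 to 3.93 and from 1.16 to 3.08 in MCK-PPARb against NTGb, from 3.22 to 4.55 and from 3.24 to 4.49 in NTGa against NTGb, and from 0.53 to 1.61 and from -1.68 to 0.23 in MCK-PPARa against MCK-PPARb. For miR-135a* the sign turned in MCK-PPARb against NTGb with the lowest Ct of the wells (-0.12), with NTGa as control (-0.45), with both control groups (-0.13) and without NTGb replicate 3 (-0.068), and in MCK-PPARa against NTGa without MCK-PPARa replicate 1 (-0.014, the lowest of a leave-1-out range that reached 0.62). The number of assays called in NTGa against NTGb was 5, and 0 to 29 over the alternatives. It was 6 in MCK-PPARa against NTGa (3 to 9), 0 in MCK-PPARb against NTGb (0 to 1) and 8 in MCK-PPARa against MCK-PPARb (5 to 11). U6 snRNA as reference moved the median of all assays from 0.02 to 0.33 in MCK-PPARb against NTGb and from -0.03 to 0.49 in NTGa against NTGb. Same-numbered animals did not deviate together (correlations of -0.288 to 0.222), and with the replicate number as a block miR-135b in MCK-PPARa was at -2.34 (limma adjusted p = 0.231) and miR-135a at 0.34 (adjusted p = 0.851), with no call changed for either. Each member had 1 well per animal, so the error between wells was not measured.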
